A study of Mus musculus with 16 samples.

Results

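Histone genes were examined in 16 mouse lung samples, in which the transcripts of several histone H4 genes stood higher under a CAV1 blocker than under its control. The members were all array spots whose gene symbol, old or current, is that of a core or linker histone, which gave 90 of 62976 spots and 76 of 20863 genes. By class these were 9 H1, 33 H2A, 14 H2B, 10 H3 and 10 H4 genes, and the 10 H4 genes were read by 13 spots. The rule reads symbols alone, but histones were taken up, and H4 set apart from the rest, with earlier results of these data known. The rule does not name the comparison concerned. It was treated here as if the members had been chosen by the differences between the CAV1 and the control blocker, so these are given as descriptions with their intervals and without p-values.

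Total RNA of whole lung from C57BL/6 mice aged 9 to 12 weeks was hybridised to single-colour (Cy3) Agilent arrays, 0.2 µg per array. Every mouse received a target site blocker (TSB) into the trachea, either the CAV1 TSB at 5 mg/kg or a Control TSB whose dose the labels do not state, 4 and 2 days before and 4 days after a second instillation. The second instillation was bleomycin at 1 unit/kg, which damages the lung and is followed by fibrosis, or phosphate-buffered saline (PBS). A TSB is a short oligonucleotide designed to mask the site at which a microRNA binds its target, here the Cav1 transcript. The groups were PBS with Control TSB (2 arrays), PBS with CAV1 TSB (2), bleomycin with Control TSB (6) and bleomycin with CAV1 TSB (6). Separate animals are not stated in the labels, and p-values therefore reflect only how these samples vary, which may be technical in part. The time of lung collection is not given in the labels.

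Histones H2A, H2B, H3 and H4 form the core on which DNA is wound, and H1 binds the linker between cores. Most core histone genes lie in clusters, are transcribed in S phase and yield transcripts that end in a stem-loop in place of a poly(A) tail, whereas replacement histones such as H2A.Z, H2A.X and H3.3 are made throughout the cell cycle. The H4 genes encode essentially the same protein, and their coding sequences are close enough that a probe can read more than its own gene. A difference at an H4 spot is therefore a difference in the signal of that probe, uncertain as to the gene, and the same holds for the clustered H2A genes. In whole tissue, more cells that carry a transcript and more transcript per cell cannot be told apart.

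Of the 76 genes, 38 lie on chromosome 13, which holds the main cluster, 10 on chromosome 3 and 10 on X. Signal was above the dim filter for 75 genes (all but H2ab1), and 12 genes, with Hist4h4 as the H4 gene among them, stayed below the array median of 6.51 to 6.52 in every array. Values are log2 signals throughout. Lung genes (surfactant, club cell and endothelial markers, 8 in all) averaged 14.51 to 15.09 in every array. Skeletal muscle and squamous epithelial transcripts differed between arrays: the mean of 12 muscle genes was 7.08 to 8.40 in both PBS CAV1 TSB arrays, bleomycin Control TSB arrays 2 and 6 and bleomycin CAV1 TSB array 3, and 10.23 to 12.72 in the others.

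The promoters of the H4 genes are shown because the H4 genes differ among themselves in what follows while sharing a short promoter string. RefSeq promoters of 300 bases (250 before to 50 after the annotated start, assembly GRCm38.p6) matched 66 of the 76 genes. The string GGTCCG was present on either strand in 8 of 8 H4 promoters, in 5 of 58 promoters of other histone genes and in 8.25% of all 32851 promoters. It was picked after reading the H4 promoters and was 1 of 9 strings searched on both strands. GGTCC and GTCCGC, which overlap it, were found in 45.5% and 9.44% of all promoters and in 8 and 7 of the H4 promoters. TATAAA was found in 13.6% of all and in 5 H4 promoters, CCAAT in 37.4% and in 2, TTCGTC in 3.43% and in 2. CGGACG and ATTTGCAT, found in 6.56% and 1.74% of all promoters, were in 0 of the 8, as was the last string, of 10 letters, found in 0.0304% of all promoters. Of the 58 promoters of other histone genes, GGTCC was in 18, GTCCGC in 10, TATAAA in 24 and CCAAT in 46. TTCGTC was in 11 of these 58, ATTTGCAT in 14, CGGACG in 2 and the string of 10 letters in 0. A match describes letters only. H4c14 and Hist4h4 had no entry, and in H4c8 the string reaches the annotated start and no excerpt is printed.

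For the 4 of the 5 higher H4 genes that had an entry, the 30 bases around the string, given on the strand of the gene with the string in capitals, lie at chr13:21735004-21735033 (H4c11, plus strand), chr13:21750568-21750597 (H4c12, minus strand), chr13:23581509-23581538 (H4c4, plus strand) and chr6:136804446-136804475 (H4f16, minus strand).
H4c11: ggttctcatttcGGTCCGcccgctacagta
H4c12: ggttctcatttcGGTCCGcccgccgcagta
H4c4: ggttttcaaacaGGTCCGcattggtattat
H4f16: tgttttcaatcaGGTCCGctcccaggaaat

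The same window in 3 of the other H4 genes lies at chr13:23698487-23698516 (H4c3, minus strand), chr13:22041391-22041420 (H4c9, minus strand) and chr13:21811687-21811716 (H4c17, plus strand).
H4c3: agttttcaaccaGGTCCGcagaaggcctat
H4c9: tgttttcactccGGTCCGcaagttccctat
H4c17: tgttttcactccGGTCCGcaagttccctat

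H4c11 and H4c12 had 28 of 30 bases in common, and H4c9 and H4c17 were identical over all 30. The string sits 18 to 47 bases before the annotated start in these 7 genes. It was present in H4 genes with a large blocker difference and in H4 genes with a difference near 0. The part of the string in these differences was not tested, and the probes are uncertain as to the gene.

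The first comparison sets the CAV1 TSB against the Control TSB after bleomycin. H4c4, H4f16, H4c14, H4c12 and H4c11 were higher under the CAV1 TSB, by 0.93 to 1.28 on the log2 scale, a fold of 1.91 to 2.42. These were the 5 histone genes called among 75 tested, and they were 5 of 10 H4 genes and 0 of 65 other histone genes. The share of all 20304 genes called in this comparison was 1.61%, and 1.2% were called higher. A call is an adjusted p under 0.05 in limma over all genes. Nothing is read from the histone count, since this comparison is taken to have chosen the members.

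H4c4 (array symbol Hist1h4d) read 11.76 at the lowest, 11.96 in the median and 12.21 at the highest with bleomycin and the Control TSB, and 12.91, 13.25 and 13.55 with bleomycin and the CAV1 TSB. Every CAV1 TSB array lay above every Control TSB array. The difference was 1.28 (SE 0.11, 95% interval 1.05 to 1.5).

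H4f16 (Hist4h4 on the array), on chromosome 6, read 10.75, 10.94 and 11.31 under the Control TSB and 11.82, 12.27 and 12.42 under the CAV1 TSB, again without overlap. Its difference was 1.23 (SE 0.11, 0.99 to 1.47). H4c14 (Hist2h4) read 12.62, 12.73 and 13.04 under the Control TSB and 13.65, 13.98 and 14.25 under the CAV1 TSB. The groups did not overlap, and the difference was 1.20 (SE 0.11, 0.96 to 1.44).

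H4c12 (Hist1h4k) ranged from 12.83 to 13.34 around a median of 12.94 under the Control TSB and from 13.81 to 14.40 around 14.28 under the CAV1 TSB, a difference of 1.19 (SE 0.12, 0.94 to 1.43). H4c11 (Hist1h4j) ranged from 7.99 to 8.46 around 8.28 and from 8.84 to 9.39 around 9.24, a difference of 0.93 (SE 0.11, 0.71 to 1.16). Both genes were separated array by array, as were the 3 above. Groups that do not overlap, with the CAV1 TSB higher, were found for 1.5% of all genes.

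Within the CAV1 TSB group, array 6 had the lowest value of all 5 genes. Of the bleomycin arrays with low muscle signal, Control TSB arrays 2 and 6 read 12.03 and 11.89 in H4c4, inside the range of their group, and CAV1 TSB array 3 had the highest value of its group in 4 of the 5 genes. Control TSB arrays 1 and 5, whose RNA integrity number was 10 against 9 in all other samples, were the highest of their group in all 5 genes. The part of RNA integrity in these values was not tested.

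**Figure D1:**
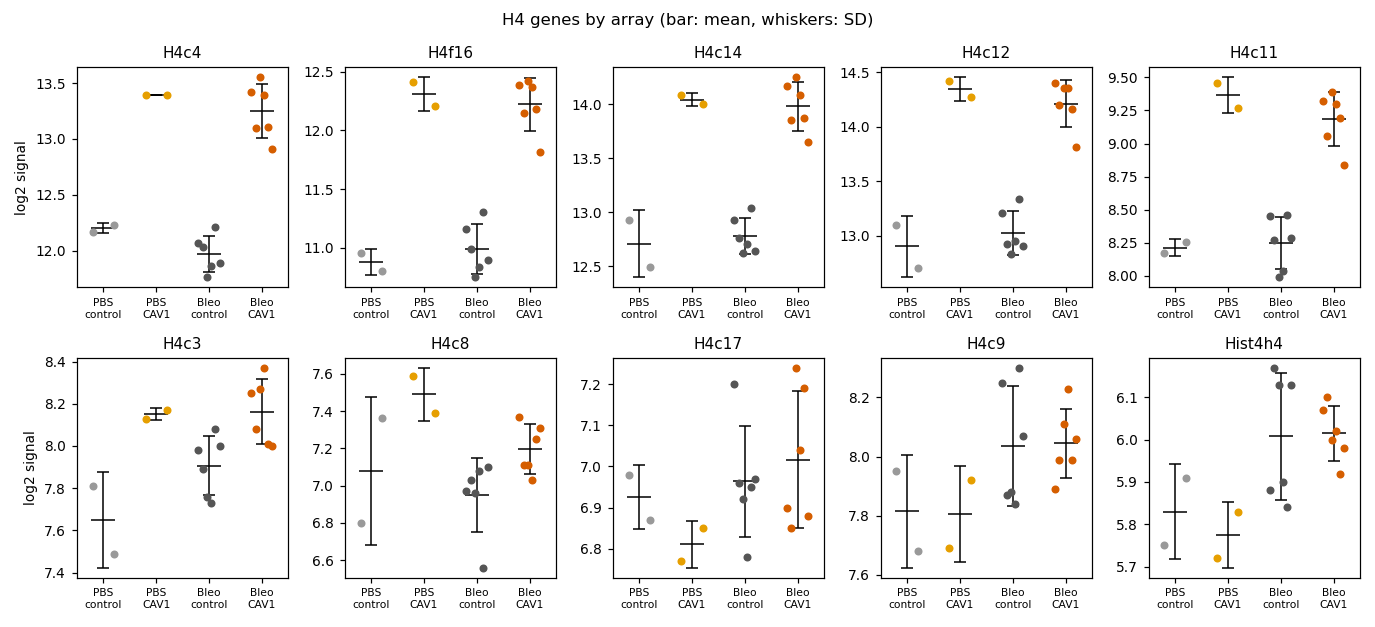
Log2 signal (vertical axis, a separate range in each panel) of the 10 H4 genes in each array, by group (PBS or bleomycin with Control or CAV1 blocker). Points are arrays, bars the mean and whiskers the SD. In the 5 panels of the upper row every CAV1 blocker array lies above every Control blocker array under the same instillation, and in the lower row the differences after bleomycin are 0.26 or less.

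The other 5 H4 genes differed less or had intervals around 0. The split into 5 and 5 was made after their values were seen. H4c3 (Hist1h4c) ranged from 7.73 to 8.08 around a median of 7.94 under the Control TSB and from 8.0 to 8.37 around 8.16 under the CAV1 TSB. The groups overlapped, with a difference of 0.26 (SE 0.09, 0.07 to 0.44). H4c8 (Hist1h4h) ranged from 6.56 to 7.10 and from 7.03 to 7.37, a difference of 0.25 (0.02 to 0.48) with overlap.

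H4c17 differed by 0.05 (-0.12 to 0.23), H4c9 by 0.01 (-0.19 to 0.22) and Hist4h4, a spot whose accession had no current entry and which is kept apart from H4f16, by 0.01 (-0.15 to 0.16). These 3 genes overlapped between the blockers, and Hist4h4 read 5.84 to 6.17, near the floor of the array. For the 10 H4 genes the median difference was 0.59, against -0.04 for the 65 other histone genes and -0.01 for all genes. No H4 gene lay near that median, which falls between H4c3 (0.26) and H4c11 (0.93). The array gives the Hist4h4 spot the same symbol as H4f16, so it may be a second spot of that gene. The count of 10 H4 genes and their median depend on keeping it apart, and without it the median would be that of H4c11.

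Spots of the same gene did not always go together. The second spot of H4c12 differed by 1.12 after bleomycin and 1.08 after PBS, much as the spot used for that gene (1.19 and 1.45). The second spot of H4c14 had group means of 5.96 to 6.15, near the floor, and differed by -0.05 and 0.10. The second spot of H4c9 differed by 0.14 and -0.45. With every spot tested on its own, 6 of 88 histone spots were called in each blocker comparison, all on the 5 genes above, beside 573 and 157 of 30638 spots.

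The same comparison after PBS rests on 2 arrays per group. The same 5 H4 genes were called, again 5 of 10 H4 genes and 0 of 65 others, beside 0.31% of all genes called and 0.276% called higher. Nothing is read from this count either, since this comparison too is taken to have chosen the members. H4c12 read 13.10 and 12.70 under the Control TSB and 14.42 and 14.27 under the CAV1 TSB, a difference of 1.45 (SE 0.20, 1.02 to 1.87). H4f16 read 10.96 and 10.80 against 12.41 and 12.21, a difference of 1.43 (SE 0.20, 1.01 to 1.85). In both genes the 2 CAV1 TSB arrays lay above the 2 Control TSB arrays by over 1.

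H4c14 read 12.93 and 12.49 against 14.09 and 14, a difference of 1.34 (SE 0.19, 0.92 to 1.75). H4c4 read 12.17 and 12.23 against 13.39 and 13.39, a difference of 1.18 (SE 0.18, 0.80 to 1.57). H4c11 read 8.17 and 8.26 against 9.46 and 9.27, a difference of 1.15 (SE 0.18, 0.76 to 1.54). The groups were separated in each of these genes, as they were, with the CAV1 TSB higher, in 23.7% of all genes, since 2 arrays against 2 separate easily.

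H4c3 differed by 0.50 (0.18 to 0.82) and H4c8 by 0.41 (0.01 to 0.81), and H4c9 (-0.01), H4c17 (-0.12) and Hist4h4 (-0.06) had intervals that held 0. The median was 0.82 for the 10 H4 genes, again between H4c3 and H4c11, and 0.05 for the other histone genes and 0.04 for all genes. Both PBS CAV1 TSB arrays were low in muscle and squamous signal (muscle 7.20 ± 0.17 against 11.52 ± 1.70 in PBS Control TSB, SD, n = 2 each; squamous 6.57 ± 0.11 against 10.10 ± 0.42), and no H4 gene was called after PBS once the muscle mean entered the fit as a covariate, with differences of 0.97 to 1.58 for the 5 genes. After bleomycin the same 5 genes were called with that covariate. With array weights, or with the compared arrays alone, the PBS count was also 0. Without PBS CAV1 TSB array 1, which leaves 1 array in that group, the calls of H4c11 and H4c4 were lost.

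Averaged over genes in each array, the H4 genes stood above the other histone genes by 0.55 ± 0.10 with bleomycin and the CAV1 TSB (SD, n = 6, range 0.44 to 0.72) and below them by 0.12 with the Control TSB (-0.12 ± 0.05, n = 6, range -0.17 to -0.05). With PBS the values were 0.71 ± 0.04 under the CAV1 TSB and 0.05 ± 0.18 under the Control TSB (n = 2 each). This average sets each array against itself, and its zero has no meaning across probes. The 2 blockers did not overlap on it under either instillation, for genes taken up with earlier results known. After bleomycin the 5 called H4 genes averaged 11.4 ± 0.18 under the Control TSB and 12.57 ± 0.22 under the CAV1 TSB. The other 5 H4 genes, which were dimmer, averaged 7.17 ± 0.07 and 7.29 ± 0.05. The sets were formed by the calls between these same blockers, so this contrast follows from the split and nothing is read from it. Macrophage transcripts also differed between the blockers. After bleomycin a list of 11 averaged 11.33 ± 0.51 under the CAV1 TSB and 11.93 ± 0.13 under the Control TSB. The lowest CAV1 TSB array was array 1, at 10.34. After PBS the list averaged 10.09 ± 0.01 and 10.57 ± 0.04. A neutrophil list of 9 averaged 11.33 ± 0.29 and 10.93 ± 0.22 after bleomycin, in the same order of blockers. After PBS it averaged 11.52 ± 0.04 and 11.57 ± 0.19. The part of these lists in the H4 values was not tested.

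**Figure D2:**
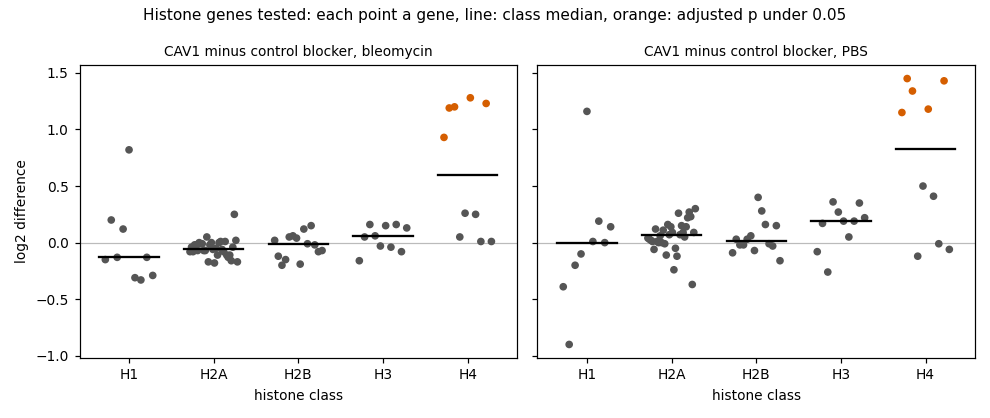
Log2 difference, CAV1 minus Control blocker, of each of the 75 histone genes tested, by class, after bleomycin (left) and after PBS (right). Points are genes, the lines are class medians and orange marks an adjusted p under 0.05. The orange points are the same 5 H4 genes in both panels, and the point of class H1 above 0.8 is H1f4.

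Outside H4, the class medians of the blocker difference after bleomycin were -0.13 for H1, -0.05 for H2A, -0.01 for H2B and 0.05 for H3. The lowest values were those of H1f6 (-0.33), H1f5 (-0.31) and H1f8 (-0.29), linker histones whose intervals all held 0. The replacement histones differed by -0.16 in H2az1 (H2A.Z), -0.11 in H2ax (H2A.X), -0.08 in H3f3a and 0.13 in H3f3b (both H3.3), and 0.25 in Macroh2a1, a variant with a large extra domain. None of these was called. After PBS the other histone genes ran from -0.90 to 1.16. The lowest was H1f10, a linker histone, with 6.72 and 8.10 under the Control TSB and 6.47 and 6.55 under the CAV1 TSB. Its difference of -0.90 (SE 0.45, -1.86 to 0.06) was not called, and without PBS Control TSB array 1 it was -1.59 and called.

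H1f4 (Hist1h1e), a linker histone named after its values were seen, was the other histone gene with a difference over 0.5 after bleomycin. It read 9.88 to 10.53 around a median of 10.08 with bleomycin and the Control TSB and 10.44 to 12.06 around 10.82 with the CAV1 TSB. The groups overlapped and array 4 was far above the rest of its group, with a difference of 0.82 (SE 0.26, 0.25 to 1.38) that was not called. After PBS it read 10.59 and 9.22 under the Control TSB and 11.18 and 10.96 under the CAV1 TSB, a difference of 1.16 (SE 0.46, 0.19 to 2.13), not called either. Those 2 Control TSB arrays lay further from each other than the group means did.

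Whether the blocker difference depended on bleomycin was tested by the interaction. No gene of 20304 was called by limma, while 9.22% had an unadjusted p under 0.05, against 2 of 75 histone genes, H2az1 and H3f3a. The H4 interaction values ran from -0.26 (H4c12, interval -0.75 to 0.23) to 0.17 (H4c17, -0.18 to 0.53), with a median of -0.15. For H4c4 it was 0.09 (-0.36 to 0.54), for H4c14 -0.14 (-0.62 to 0.34), for H4f16 -0.20 (-0.68 to 0.28) and for H4c11 -0.21 (-0.66 to 0.23). Without PBS Control TSB array 1, the interaction was -0.57 in H2az1 and -0.64 in H3f3a, with 1 array left in that group. The muscle and squamous lists had interaction medians of 4.57 and 3.65. Beyond the muscle covariate, the part of these tissues in the histone interaction values was not tested.

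Bleomycin itself, set against PBS under the same blocker, moved no H4 gene past the threshold; with array weights H4c8 was called lower under the CAV1 TSB (-0.33, limma adjusted p = 0.0380). These 2 comparisons were not those taken to have chosen the members, and their limma p-values are given, adjusted over all genes. Under the Control TSB, H4 differences ran from -0.23 (H4c4) to 0.25 (H4c3), with a median of 0.09 beside 0.03 for all genes, and 0 of 10 had an unadjusted p under 0.05, against 15.9% of all genes. Under the CAV1 TSB they ran from -0.29 (H4c8) to 0.24 (H4c9 and Hist4h4), with a median of -0.08, and 1 of 10 had an unadjusted p under 0.05, against 14.8% of all genes. The 2 comparisons share no arrays with each other, and each shares its arrays with the blocker comparisons. Muscle and squamous transcripts differed as well. Their list medians were -1.88 and -0.71 under the Control TSB and 3.12 and 3.14 under the CAV1 TSB. Beyond the muscle covariate, the part of these tissues in the bleomycin differences of histone genes was not tested.

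The 5 H4 genes that differed between blockers had bleomycin differences of -0.23 to 0.13 under the Control TSB and -0.18 to -0.06 under the CAV1 TSB. Their intervals lay between -0.55 (H4c4) and 0.47 (H4c12), both under the Control TSB. The blocker differences of these genes were 0.93 or more, but the genes were set apart by those differences. No contrast between blocker and bleomycin is therefore read.

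H2az1, the H2A.Z gene, was the histone gene called with bleomycin under the Control TSB, beside 2.41% of all genes called and 1.96% called higher. It read 14.66 and 14.37 with PBS and 14.85 to 15.19 around a median of 15.05 with bleomycin. All 6 bleomycin arrays lay above both PBS arrays, with a difference of 0.51 (SE 0.11, 0.28 to 0.74, limma adjusted p = 0.0273). The call was lost without PBS Control TSB array 2 (0.37, adjusted p = 0.318) and without bleomycin Control TSB array 1 (0.51, adjusted p = 0.0580), and with the mean of spots, array weights, the compared arrays alone, the replicate block or the muscle covariate. Under the CAV1 TSB the bleomycin difference was 0.09 (SE 0.11, -0.15 to 0.32, adjusted p = 0.763). The interaction was -0.42 (-0.75 to -0.10, adjusted p = 0.497), so a difference between the blockers in this response was not detected after adjustment.

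Clustered H2A genes had the largest bleomycin values among histones without a call. H2ac11 (Hist1h2ag), a canonical H2A gene, read 15.09 and 13.81 with PBS and 15.12 to 15.76 around 15.31 with bleomycin under the Control TSB. The groups were just separate, with a difference of 0.93 (SE 0.25, 0.39 to 1.48, limma adjusted p = 0.0707). H2ac22 (Hist1h2an) read 14.71 and 13.49 with PBS and 14.75 to 15.32 around 14.92 with bleomycin, a difference of 0.89 (SE 0.25, adjusted p = 0.0750). H2ac4 (Hist1h2ab) read 12.22 and 10.38 with PBS and 11.90 to 12.74 around 12.15 with bleomycin, a difference of 0.91 (SE 0.37, adjusted p = 0.240) with overlap. In all 3 genes the second PBS array was the low one.

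Under the CAV1 TSB both PBS arrays were low in muscle and squamous signal. H2ac11 there read 14.40 and 14.54 with PBS and 14.93 to 15.62 around 15.36 with bleomycin. The groups were separate, with a difference of 0.84 (SE 0.25, adjusted p = 0.133). H2ac22 read 14.02 and 14.18 with PBS and 14.61 to 15.23 around 14.99 with bleomycin, a difference of 0.82 (SE 0.25, adjusted p = 0.131). H2ax, a variant phosphorylated at DNA breaks, differed by 0.71 (SE 0.26, adjusted p = 0.185) under the Control TSB and 0.38 (adjusted p = 0.531) under the CAV1 TSB.

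Over the 14 H2A genes with clustered array symbols the median bleomycin difference was 0.50 under each blocker, and 8 and 7 of the 14 were higher at 0.05 unadjusted, against 10.5% and 7.15% of all genes. Their probes can read one another, so these are not 14 separate measurements. The 8 clustered H3 genes had medians of 0.33 and 0.14, all 8 above 0 under both blockers. The 12 clustered H2B genes had medians of 0.19 and 0.12 and the 6 clustered H1 genes 0.25 and 0.28. The X or Y linked H2A and H2B genes, several of which are known from the testis, had medians of 0.02 and -0.08.

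For all histone genes other than H4, 1 of 65 was called under the Control TSB (2.41% of all genes) and 0 of 65 under the CAV1 TSB (0.517%). At 0.05 unadjusted, 21 and 15 were higher (10.5% and 7.15% of all genes). By that measure 2 and 1 were lower (5.41% and 7.67% of all genes). Among the lower values, H2al1j, an X linked H2A variant, differed by -0.28 under the Control TSB (adjusted p = 0.0521). H2bc21, a clustered H2B gene, read 8.70 and 8.80 with PBS and 8.34 to 8.53 with bleomycin under the CAV1 TSB, separate and lower by -0.34 (SE 0.08, adjusted p = 0.0600). Under the Control TSB it differed by -0.21.

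The bleomycin differences under the Control TSB hang on the 2 PBS arrays. The 14 clustered H2A genes averaged 12.17 in PBS Control TSB array 1 and 11.47 in array 2, against 12.25 ± 0.12 (SD, n = 6) with bleomycin. Without array 1 the H2ac11 difference was 1.58, and without array 2 it was 0.29. Each of these fits leaves 1 array in the PBS Control TSB group. Under the CAV1 TSB the PBS arrays averaged 11.83 and 11.86 and the bleomycin arrays 12.20 ± 0.14. There 1 histone gene was called when bleomycin CAV1 TSB array 1 was left out, and 16 with array weights. The share of all genes called under these settings is not given, so nothing is read from these counts.

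**Figure D3:**
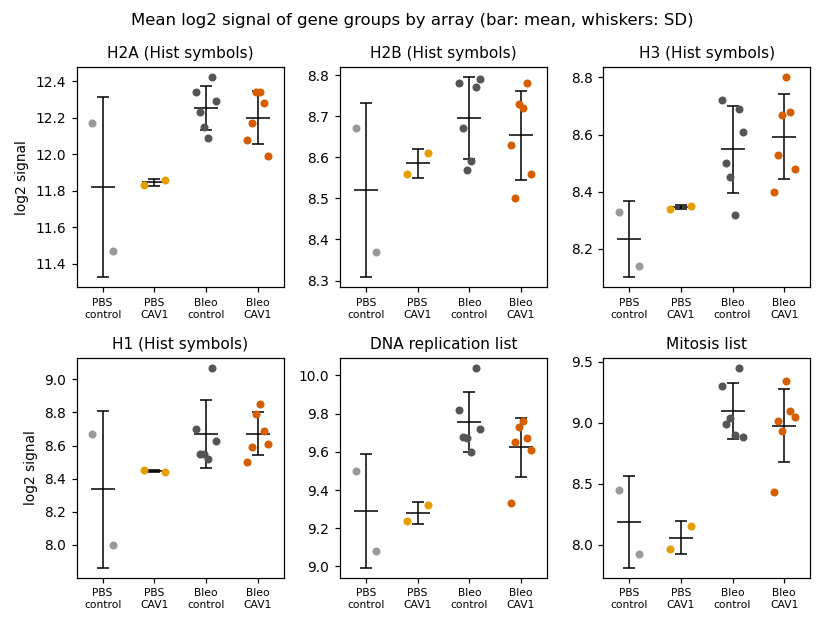
Mean log2 signal per array (vertical axis, a separate range in each panel) of the clustered H2A, H2B, H3 and H1 genes and of the DNA replication and mitosis lists, by group. Points are arrays, bars the mean and whiskers the SD. PBS Control blocker array 2 is the lowest of all arrays in each of the panels, and its H2A mean is 11.47 against 12.17 in array 1.

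**Figure D4:**
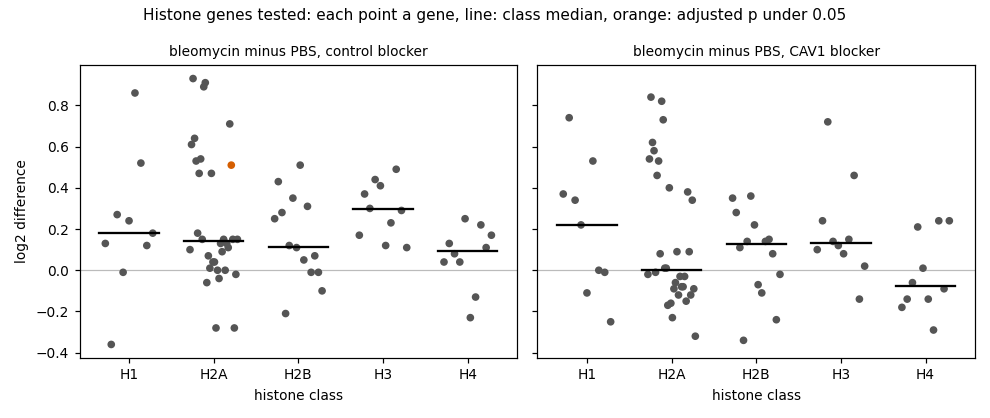
Log2 difference, bleomycin minus PBS, of each of the 75 histone genes tested, by class, under the Control blocker (left) and the CAV1 blocker (right). Points are genes, the lines are class medians and orange marks an adjusted p under 0.05. The orange point is H2az1, and the H4 points lie between -0.29 and 0.25.

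Genes of DNA synthesis and cell division were measured beside the clustered histones, whose transcripts accompany S phase. Their part in the histone values was not tested. With bleomycin under the Control TSB, 1 of 26 replication genes was called (2.41% of all genes), Rrm1 (a ribonucleotide reductase subunit, 0.54, adjusted p = 0.0485), with a list median of 0.43 and 26 of 26 above 0 (56.4% of all genes). Of the 26, 19 passed 0.05 unadjusted (15.9% of all genes). The Rrm1 call was kept in 2 of the 16 fits that leave out an array, and was lost with trend and robust moderation (adjusted p = 0.0538), array weights, the compared arrays alone, the replicate block and the muscle covariate. The list's count was 16 without PBS Control TSB array 1. Under the CAV1 TSB 0 of 26 were called (0.517% of all genes), with a median of 0.24 and 12 passing 0.05 unadjusted (14.8%). That count was 12 with array weights and 7 without bleomycin CAV1 TSB array 1. Of 19 mitosis genes, 10 rose under the Control TSB (list median 1.02, 2.41% of all genes called) and 5 under the CAV1 TSB (1.01, 0.517%). Leaving out an array moved both mitosis counts from 0 to 13, and with the replicate block both were 0. Array weights gave 0 and 16. The share of all genes called is given for the main fit alone, so nothing is read from these shifts. Between the blockers after bleomycin, 0 of 26 replication genes were called, with a median of -0.14 and 25 of 26 below 0 (45.6% of all genes lay above 0), and after PBS 0 of 26, with a median of -0.09. Without PBS Control TSB array 1 the median after PBS was 0.15 and 5 replication genes were called higher, among them the helicase subunits Mcm4 (0.60, limma adjusted p = 0.0333) and Mcm6 (0.88, adjusted p = 0.0316).

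No gene of the list that makes and processes histone transcripts was called between the blockers with all 16 arrays. The list of 18 holds the cluster activator Npat, the H4 promoter factor Hinfp, the stem-loop binding protein Slbp and the 3' end cleavage factors. Group means of Npat (5.95 to 6.01) and of the cyclin gene Ccne2 (5.93 to 6.05) lay near the floor. A change in these genes may therefore not show. After bleomycin 0 of 18 were called, none had an unadjusted p under 0.05 (9.08% of all genes had one), and the differences ran from -0.13 (Nasp) to 0.15 (Slbp), with Hinfp at 0.12 (SE 0.06, limma adjusted p = 0.639). After PBS 0 of 18 were called and 1 (12.8% of all genes), the decay factor Upf1 (-0.99, adjusted p = 0.357), had an unadjusted p under 0.05. Without PBS Control TSB array 1, 3 were called after PBS, Upf1 (-1.68, limma adjusted p = 0.0118), the cleavage factor Cpsf3 (-0.64, adjusted p = 0.0401) and Casp8ap2 (0.59, adjusted p = 0.0394). Against PBS under the Control TSB, 0 were called with bleomycin and 6 passed 0.05 unadjusted (15.9% of all genes), led by Nasp, an H3 and H4 chaperone (0.44, adjusted p = 0.0743). That count was 8 without PBS Control TSB array 1. Under the CAV1 TSB the cyclin gene Ccne1 rose by 1.05 (SE 0.22, adjusted p = 0.0473), a call kept in 3 of the 16 fits that leave out an array. It was lost with the mean of spots (0.59, adjusted p = 0.0529), the compared arrays alone (adjusted p = 0.152), the replicate block (adjusted p = 0.506) and the muscle covariate (adjusted p = 0.316).

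Among 23 histone chaperones and deposition factors, 3 rose under the CAV1 TSB after bleomycin (1.61% of all genes were called, 1.2% higher). The list was chosen with earlier results of these data known, so nothing is read from its count. Adjusted p-values of its genes between the blockers are given as descriptions. Hira, which deposits H3.3 with H4 outside of S phase, read 7.03 to 7.66 around 7.46 under the Control TSB and 8.60 to 9.07 around 8.78 under the CAV1 TSB. The groups were far apart, with a difference of 1.38 (SE 0.11, 1.15 to 1.61, limma adjusted p = 4.6e-06). After PBS it read 7.32 and 7.53 against 8.56 and 8.83, a difference of 1.27 (SE 0.18, 0.87 to 1.66, adjusted p = 0.00747). The second call was lost without PBS CAV1 TSB array 2 (1.13, adjusted p = 0.0825) and with array weights, the compared arrays alone, the replicate block or the muscle covariate.

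Mms22l, a partner of Tonsl at stressed replication forks, read 12.08 to 12.36 around 12.25 under the Control TSB and 12.95 to 13.43 around 13.13 under the CAV1 TSB after bleomycin. The groups were separate, with a difference of 0.92 (SE 0.14, 0.62 to 1.22, adjusted p = 0.00220). After PBS it read 11.96 and 12.97 against 13.28 and 12.86, overlapping, with a difference of 0.61 (adjusted p = 0.374) that was called without PBS Control TSB array 2 (1.11, adjusted p = 0.0137).

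Nap1l4, an H2A and H2B chaperone, read 10.03 to 10.27 around 10.15 and 10.48 to 11.24 around 10.58, separate by a narrow gap. Its difference was 0.54 (SE 0.13, 0.27 to 0.81, adjusted p = 0.0457), a call kept in 5 of the 16 fits that leave out an array. It was lost with the mean of spots (0.26, adjusted p = 0.133), the replicate block (adjusted p = 0.108) and the muscle covariate (adjusted p = 0.0613). Tonsl differed by 0.28 (adjusted p = 0.225). The list median was 0.03 after bleomycin and 0.09 after PBS, beside -0.01 and 0.04 for all genes.

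With bleomycin under the Control TSB, Chaf1b, a subunit of the factor that deposits H3 and H4 behind the fork, read 10.25 and 9.88 with PBS and 10.62 to 11.08 around 10.65 with bleomycin. The groups were separate, with a rise of 0.69 (SE 0.15, 0.38 to 1.00, adjusted p = 0.0259), lost without PBS Control TSB array 2 (0.51, adjusted p = 0.298) or bleomycin Control TSB array 1 (0.66, adjusted p = 0.0580). It was also lost with the mean of spots (adjusted p = 0.0517), array weights, the compared arrays alone (adjusted p = 0.0876) and the replicate block (adjusted p = 0.275). It was 1 of 23 called (2.41% of all genes), and the count was 5 without PBS Control TSB array 1. With the CAV1 TSB 0 of 23 were called by limma (0.517% of all genes) and 5 with array weights, while 6 passed 0.05 unadjusted (14.8%), with Chaf1b at 0.42 (adjusted p = 0.182). Asf1b, a chaperone of new H3 and H4, had 0.72 (adjusted p = 0.0530) and 0.79 (adjusted p = 0.0634). Hira differed by 0.00 and 0.11 with bleomycin.

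**Figure D5:**
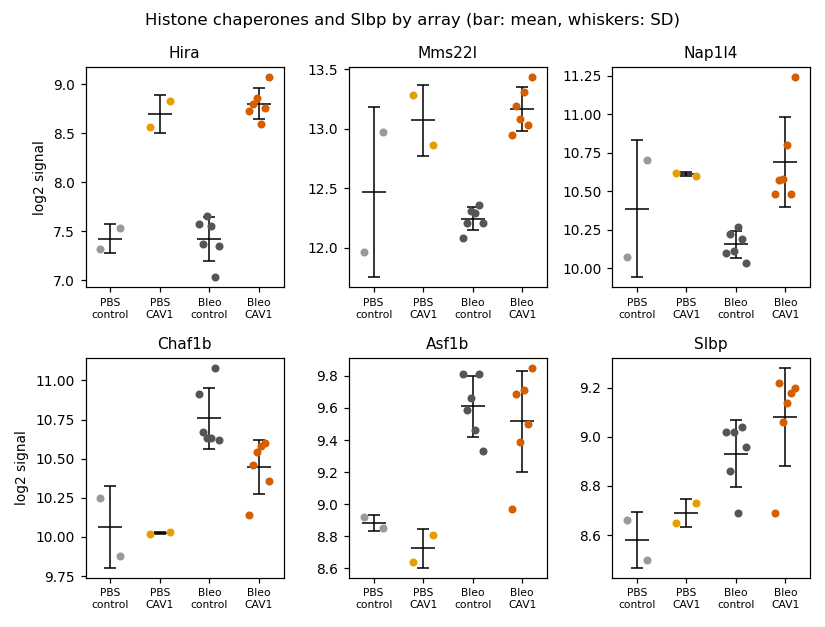
Log2 signal per array (vertical axis, a separate range in each panel) of 5 histone chaperone genes and of Slbp, by group. Points are arrays, bars the mean and whiskers the SD. Hira is higher in all 8 CAV1 blocker arrays (8.56 to 9.07) than in all 8 Control blocker arrays (7.03 to 7.66). Under either blocker, Chaf1b and Asf1b are higher in every bleomycin array than in every PBS array. Of these rises only that of Chaf1b under the Control blocker was called.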

How the data were processed

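Whole-lung RNA was measured on 16 single-colour arrays. The deposited values are log2 intensities, made with limma per the submitters' processing notes; version, background correction and array slide are not given in the sources used here. Distributions were nearly alike (minimum 5.39 to 5.41, 25th percentile 5.97 to 5.99, maximum 18.28), and values were used as deposited. Spots with a gene symbol numbered 31465, and 31511 had none; RefSeq accessions matched 29036 and renewed 2933 symbols. Of the 90 member spots, 76 matched by array symbol and 14 by current symbol alone. Of the spots of a gene, the brightest stood for it (12 member genes had more than 1).

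Genes above the 25th percentile in at least 2 arrays were tested (20304). Limma 3.58.1 on R 4.3.3 fitted 1 mean per group to all arrays (12 residual degrees of freedom), two-sided, with Benjamini-Hochberg adjustment over all genes and calls at 0.05. Intervals are 95%; the number of arrays limits the precision. The fit was tested on simulated data. Correlations between arrays were 0.973 to 0.996 over 120 pairs, and no array was a copy of another. Samples were grouped by the labels. Replicate numbers did not pair the samples.

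The members and gene lists were chosen with earlier results of these data known. Named by rule were every H4 gene, called histone genes, the 3 largest rises and falls per comparison, the replacement histones, and of each list its called members and up to 4 with the smallest p. H1f0 was not among the members. The 12 alternatives were the dim filter (none, 50th percentile), mean of spots, spots as features, array weights, trend and robust moderation, median centring, a second quantile normalization, compared arrays only, replicate block, a muscle covariate and leaving out each array.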

Additional observations from a re-analysis of the deposited data

Results flagged for a closer look

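Single arrays far from the other 5 of their group were found for 7 of 128 combinations of a named gene and a bleomycin group, and chance gives about 1 in 20. Bleomycin Control TSB array 5 accounted for 4 of them. In that array the linker histone genes H1f6 and H1f8 read 8.05 (others 6.28 to 6.62) and 7.74 (others 6.68 to 7.01), the S phase gene Uhrf1 read 10.05 (others 9.50 to 9.64) and H4c8 read 6.56 (others 6.96 to 7.10). The H1f6 and H1f8 blocker differences of -0.33 and -0.29 include this array. H3c14, a clustered H3 gene, read 10.18 in bleomycin CAV1 TSB array 4, against 9.31 to 9.57 in the others. Slbp, the stem-loop binding protein, read 8.69 in bleomycin CAV1 TSB array 1, against 9.06 to 9.22. The chaperone Dnajc9 read 11.57 in bleomycin CAV1 TSB array 6, against 11.93 to 12.12.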

How the results depend on the processing

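Of 162 settings other than leaving out an array, for counts of called histone genes and for medians of H4 and other histone genes, 144 stayed near the main value. The count between the blockers after bleomycin was 5 to 5 without an array; that comparison is taken to have chosen the members, so nothing is read from it. Over 3992 gene values none changed sign with a call, 88 calls were lost and 83 gained; among 3442 that were uncalled in both fits, 50 changed sign. The count with bleomycin under the Control TSB was 2 without the dim filter and with trend and robust moderation, and 0 with array weights, compared arrays only and the muscle covariate. Array weights gave 16 under the CAV1 TSB. The PBS blocker count was 0 with array weights, compared arrays only and the muscle covariate. The H4 median between blockers was 0.93 after bleomycin and 1.15 after PBS with the 50th percentile filter, 0.41 and 0.61 with the mean of spots and 0.26 and 0.50 over spots, since dim spots enter or leave. The H4 interaction median was -0.01 with the covariate. The cause of the other shifts was not tested.

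Replicate numbers share only a number: deviations of same-numbered bleomycin arrays correlated from -0.69 to 0.35, and 1 of 6 was best with its own number. With the replicate block the count was 0 with bleomycin under the Control TSB and 3 for the PBS blocker comparison.

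Leaving out an array moved counts from 0 to 21 with bleomycin under the Control TSB, 0 to 9 under the CAV1 TSB, 3 to 13 for the PBS blocker comparison and 0 to 8 for the interaction, the highest of each without PBS Control TSB array 1. The median of other histone genes ran from 0.09 to 0.28 with bleomycin under the Control TSB, -0.11 to 0.23 between blockers after PBS and -0.24 to 0.05 for the interaction. A PBS array left alone in its group took its spread from the rest. Apart from spots as features, the share of all genes called is given for the main fit alone. Nothing about histones or the gene lists is therefore read from counts under other settings. With 2 arrays per PBS group and no marks of detection used here, small differences and dim genes are the least certain.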
